A study of Mus musculus with 16 samples.

Results

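The Myb transcription factor genes, the gene of their coactivator p300 and 2 genes of the CITED family were followed across all 4 groups of a mouse bone marrow array study. All probes annotated to Myb, Mybl1, Mybl2, Ep300, Cited2 and Cited4 were taken, which gave 9 of the array's 25697 probes, for 6 of its 16593 named genes. Of the 9, 8 were among the 12760 probes tested, which had a detection p under 0.05 on at least 4 of the 16 arrays.

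The 16 samples were total RNA on 1-colour Illumina mouse BeadChips, from bone marrow progenitors of 8-week-old mice that were enriched for c-Kit, the receptor of stem cell factor. They were cultured with IL-3, IL-6 and stem cell factor, transduced with a retrovirus and sorted 48 hours later for c-Kit and for the green fluorescent protein that every virus carried. The groups, of 4 arrays each, were Booreana cells with AML1-ETO9a, wild-type C57Bl/6 cells with AML1-ETO9a, Booreana cells with the control vector and wild-type cells with the control vector. AML1-ETO9a, a truncated splice product of the RUNX1 and RUNX1T1 fusion gene of acute myeloid leukemia, was here expressed from a retroviral vector for a short time in culture. Booreana mice carry a point substitution in c-Myb that weakens its binding to p300, and the series title names the need for that binding in leukemia driven by human oncogenes. The arrays read transcript levels and not the substitution. The labels name 4 Booreana mice, give no number of wild-type mice and do not say whether arrays came from separate animals, so p-values measure only the spread between these arrays.

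c-Myb, the product of Myb, is a DNA-binding activator that progenitors of the blood need, and it works through p300 and the related protein CBP by binding their KIX domain. B-Myb (Mybl2) serves dividing cells, where it joins the MuvB complex on promoters of mitotic genes, and A-Myb (Mybl1) is best known from germ cells and germinal centre B cells. CITED2 and CITED4 are small proteins without a DNA-binding domain that bind another domain of p300 and CBP, and CITED2 competes there with HIF-1, the oxygen-sensing factor. CITED2 is known to be needed for the maintenance of blood stem cells.

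An array's median intensity lay between 189 and 250, and 39.5% to 46.7% of its probes were detected. Booreana control replicate 2 stood apart, with a mean correlation of 0.845 with the other arrays where the others had 0.931 to 0.955. The main results of Cited2 and Ep300 that rest on it are therefore given with and without it. Kit, the gene of the sorted receptor, had no named probe, and the other 6 of 7 progenitor markers were each detected in every group. Markers of other blood cells moved with the groups. The summed normalized intensity of 6 primary granule genes of neutrophil precursors was 11800 to 15200 in Booreana AML1-ETO9a, 71400 to 108000 in wild-type AML1-ETO9a, 19700 to 21900 in Booreana vector control and 185000 to 220000 in wild-type vector control cells. The sum of 5 erythroid markers was 4440 to 12200 in Booreana AML1-ETO9a, 287 to 541 in wild-type AML1-ETO9a, 5420 to 9220 in Booreana vector control and 317 to 856 in wild-type control cells. Monocyte and macrophage markers summed to 21000 to 46400 in Booreana AML1-ETO9a, 31700 to 49100 in wild-type AML1-ETO9a, 4780 to 19900 in Booreana vector control and 16800 to 25400 in wild-type control cells. Megakaryocyte markers summed to 4700 to 9980 in Booreana AML1-ETO9a, 3080 to 7470 in wild-type AML1-ETO9a, 3660 to 7590 in Booreana vector control and 683 to 1980 in wild-type control cells. The monocyte sums were higher with AML1-ETO9a than with the control vector in both genotypes, without overlap. Among all single probes, 11.3% were free of overlap between vectors in wild-type cells and 6.58% in Booreana cells. Of 5 monocyte genes tested, 3 rose and 0 fell in wild-type cells (4.32% of all probes called). In Booreana cells 1 rose and 0 fell (1.65%). The megakaryocyte sums were higher without overlap in wild-type cells, and overlapped between vectors in Booreana cells. Of 5 megakaryocyte genes tested, 2 rose and 0 fell in wild-type cells (4.32% of all probes called). The median of the 5 was -0.27 there, so the higher sum did not hold for the list as a whole. Eosinophil markers summed to 11700 to 25600 in Booreana AML1-ETO9a, 3880 to 9110 in wild-type AML1-ETO9a, 27700 to 42300 in Booreana vector control and 15200 to 33600 in wild-type control cells. The eosinophil sums were lower with AML1-ETO9a than with the control vector in both genotypes, without overlap. Of 4 eosinophil genes tested, 0 rose and 3 fell in wild-type cells (4.32% of all probes called). In Booreana cells 0 of the 4 were called (1.65%). Late neutrophil markers lay at 256000 to 306000 in wild-type control cells and at 107000 to 245000 in the other groups. The mast cell and basophil sums overlapped between genotypes and between vectors, but single genes passed an adjusted p of 0.05. Of 8 tested, 2 rose and 0 fell in Booreana against wild-type cells with the control vector (6.35% of all probes called). With AML1-ETO9a, 3 rose and 0 fell (3.74%). For AML1-ETO9a against control, 3 rose and 2 fell in Booreana cells (1.65%). In wild-type cells 1 rose and 2 fell (4.32%). The part of these markers in the results below was not tested. Of the T cell markers with a probe 0 of 4 were tested, and the B cell factors Ebf1 and Pax5 were detected on no array. In bulk samples, fewer cells of a type and less RNA per cell cannot be told apart.

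Cited4 was called in 5 of the 7 comparisons: it was high in Booreana AML1-ETO9a and wild-type control cells and low in Booreana control cells. AML1-ETO9a raised it in Booreana cells and lowered it in wild-type cells, where the call ended without any of 7 single arrays. Averaged over vectors, Mybl2 fell in Booreana against wild-type cells on 2 of its 3 probes. Neither probe was called with a replicate block within genotype or without normalization between arrays. Probe 2 also lost its call without the filter on dim probes and with array weights. Myb, Ep300 and Cited2 were called in 0 of the 7 comparisons, and Mybl1 was not above background on any array. All values below are normalized log2 intensities or differences of them, ± after a group mean is an SD over 4 arrays and ± after a difference is a standard error of the fit. Calls are limma adjusted p-values under 0.05, taken over all 12760 tested probes.

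**Figure D1:**
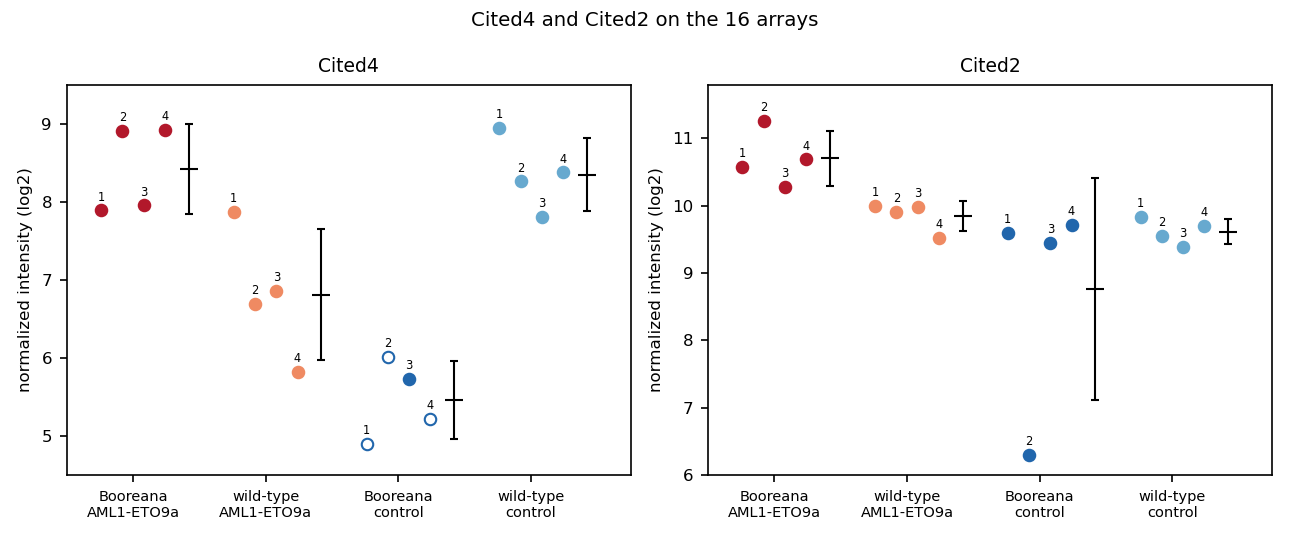
Normalized log2 intensity of Cited4 and Cited2 on each array, by group, with replicate numbers above the points, open points where the detection p was 0.05 or more, and bars for the mean ± SD. Cited4 reached 8.92 in Booreana AML1-ETO9a cells and at most 6.02 in Booreana control cells, while Cited2 lay at 6.30 on a single Booreana control array.

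Cited4 (probe ILMN_2998934) encodes the CITED4 coactivator, which binds p300 and TFAP2 factors. It had 7.89, 8.91, 7.95 and 8.92 on the Booreana AML1-ETO9a arrays, in the order of replicates 1 to 4, and 7.87, 6.69, 6.86 and 5.82 on the wild-type AML1-ETO9a arrays. The Booreana control arrays had 4.90, 6.02, 5.73 and 5.22, and the wild-type control arrays had 8.95, 8.26, 7.81 and 8.37. Every Booreana AML1-ETO9a array lay above every Booreana control array, and every wild-type control array lay above every Booreana control array as well. Wild-type AML1-ETO9a replicate 1, at 7.87, lay above the lowest wild-type control array, so those 2 groups overlapped. The probe was detected on all 4 arrays of 3 groups and on 1 of 4 Booreana control arrays, so changes against that group rest partly on background.

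The promoter of Cited4 is shown because this gene's response differed most between the genotypes. It is the 250 bases before the annotated start, from RefSeq on GRCm38.p6, at chr4:120666313-120666562 on the plus strand, with an E2F core motif in capitals.
Cited4: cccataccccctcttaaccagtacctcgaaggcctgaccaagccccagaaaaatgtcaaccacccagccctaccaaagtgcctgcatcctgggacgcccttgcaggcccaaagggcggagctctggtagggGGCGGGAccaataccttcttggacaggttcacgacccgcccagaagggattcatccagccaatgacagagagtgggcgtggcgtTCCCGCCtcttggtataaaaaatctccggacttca
The motif searched was GGCGGGA on both strands, a form settled on after the sequences were seen, and it occurs at 113 bases (plus strand) and 29 bases (minus strand) before the start. Of 32851 mouse promoters of this length, 9.75% held it at least once. The c-Myb core AACNG, which 74.2% of those promoters held, the RUNX core TGTGGT, which 14% held, and the HIF core ACGTG, which 16.6% held, had 0 matches on either strand of this window. A match describes letters and not a bound site.

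With AML1-ETO9a in Booreana cells, Cited4 rose by 2.95 ± 0.40 (95% interval 2.10 to 3.80, adjusted p = 0.000809). The size of this rise is uncertain, since the probe was detected on 1 of 4 Booreana control arrays: it was 1.32 without background correction and 0.87 in the authors' processed values, called in both. It was 1 of 8 member probes called there, against 1.65% of all probes. Paired by replicate number, all 4 Booreana pairs were higher with AML1-ETO9a, by 2.98, 2.89, 2.22 and 3.70. As the 2 Booreana groups did not overlap, any pairing would give this direction. In wild-type cells AML1-ETO9a lowered Cited4, with a log2 difference of -1.54 ± 0.40 (adjusted p = 0.0392), again as the only one of 8 member probes called, against 4.32% of all probes. All 4 wild-type pairs were lower, at -1.08, -1.57, -0.95 and -2.55. The wild-type call ended when any of 7 arrays was left out (Booreana control replicate 3, wild-type AML1-ETO9a replicates 2, 3 and 4, wild-type control replicates 1, 2 and 4), with adjusted p up to 0.124. With the replicate number as a block it had adjusted p = 0.0592 over all groups and 0.00543 within genotype. It also ended without normalization between arrays (0.128), in the authors' values (-0.54, 0.0581), without the filter on dim probes (0.0688) and with only the groups compared (0.0593), and its size was -0.78 without background correction.

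The 2 responses differed by 4.49 ± 0.57 (Booreana minus wild-type, 95% interval 3.28 to 5.69, adjusted p = 0.00522), which ranked 1 of 12760 probes by p. Of the 8 member probes 1 was called for this difference, against 0.0862% of all probes. Leaving out any single array gave 4.16 to 4.84 with adjusted p up to 0.0199. Under the other settings the call also held, but the size shrank to 2.10 without background correction and 1.41 in the authors' processed values, whose scale begins at 7.99. Among the c-Myb targets listed below, Gfi1, a repressor needed for neutrophil development, was called for the same contrast (2.46 ± 0.33, adjusted p = 0.00522).

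Between genotypes, Cited4 was lower in Booreana than in wild-type cells with the control vector, at -2.88 ± 0.40 (adjusted p = 0.000259), a size that shrank to -1.27 without background correction and -0.83 in the authors' values, called in both, with the Booreana group again near background. It was the only one of 8 member probes called there, against 6.35% of all probes. With AML1-ETO9a the order was the opposite, 1.61 ± 0.40 higher in Booreana cells (adjusted p = 0.0347), and 2 of 8 member probes were called, against 3.74% of all. The second call ended when any of 5 arrays was left out (Booreana AML1-ETO9a replicates 2 and 4, wild-type AML1-ETO9a replicates 2, 3 and 4), with adjusted p up to 0.118, and it had 0.0572 with the replicate block over all groups and 0.0317 within genotype. It also ended without the filter (0.0621) and with only the groups compared (0.0713), and its size was 0.83 without background correction and 0.58 in the authors' values. The 4 pairwise comparisons share arrays, so they are not separate evidence. Averaged over genotypes or vectors, where the opposite responses cancel, Cited4 was at 0.71 (adjusted p = 0.192) and -0.64 (adjusted p = 0.236), called only with array weights (adjusted p = 0.0499 and 0.0498).

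Cited2 (probe ILMN_2905866) encodes the CITED2 protein introduced above. It had 10.58, 11.26, 10.28 and 10.69 on the Booreana AML1-ETO9a arrays and 10.00, 9.91, 9.98 and 9.52 on the wild-type AML1-ETO9a arrays. The Booreana control arrays had 9.60, 6.30, 9.45 and 9.72, and the wild-type control arrays had 9.83, 9.55, 9.39 and 9.70. Every Booreana AML1-ETO9a array lay above every other array, and the others lay between 9.39 and 10.00 apart from Booreana control replicate 2, the array that stood apart. The fitted response in Booreana cells was 1.93 ± 0.55 (adjusted p = 0.108, not called), against 0.23 ± 0.55 in wild-type cells (adjusted p = 0.958).

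The size and call of the Cited2 response varied with that array and with the processing. Without the array the Booreana response was 1.11 (adjusted p = 0.0123) and Booreana minus wild-type with AML1-ETO9a was 0.85 (adjusted p = 0.0203, and 0.685 with the array). Averaged over genotypes, the response without it was 0.67 (adjusted p = 0.00868), and 1.08 (adjusted p = 0.129) with it. With a block for the replicate number within each genotype, the Booreana response of 1.93 had adjusted p = 0.035 as a random term and 0.112 as a fixed term. With the array kept, that response was also called without background correction (1.45, adjusted p = 0.0397), in the authors' values (1.23, adjusted p = 0.032) and with array weights (1.13, adjusted p = 0.0214). The difference between the 2 responses was 1.70 with the array (adjusted p = 0.728) and 0.88 without it (adjusted p = 0.495), so a difference between genotypes in the Cited2 response did not pass the test. The 95% interval of that difference, 0.05 to 3.35, is wide.

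The Cited2 promoter is shown beside that of Cited4, since the 2 genes encode related proteins that bind p300. Its 250 bases lie at chr10:17722978-17723227 on the plus strand of GRCm38.p6 (RefSeq), with c-Myb and HIF core motifs in capitals.
Cited2: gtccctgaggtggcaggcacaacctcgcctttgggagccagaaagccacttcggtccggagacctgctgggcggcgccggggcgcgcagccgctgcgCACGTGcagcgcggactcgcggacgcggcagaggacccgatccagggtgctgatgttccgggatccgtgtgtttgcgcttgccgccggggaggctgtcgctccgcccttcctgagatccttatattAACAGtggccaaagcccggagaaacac
The HIF core ACGTG occurs once on each strand at overlapping positions, 148 and 149 bases before the start, and AACNG occurs 23 bases before the start. GGCGGGA and TGTGGT had 0 matches in this window.

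**Figure D2:**
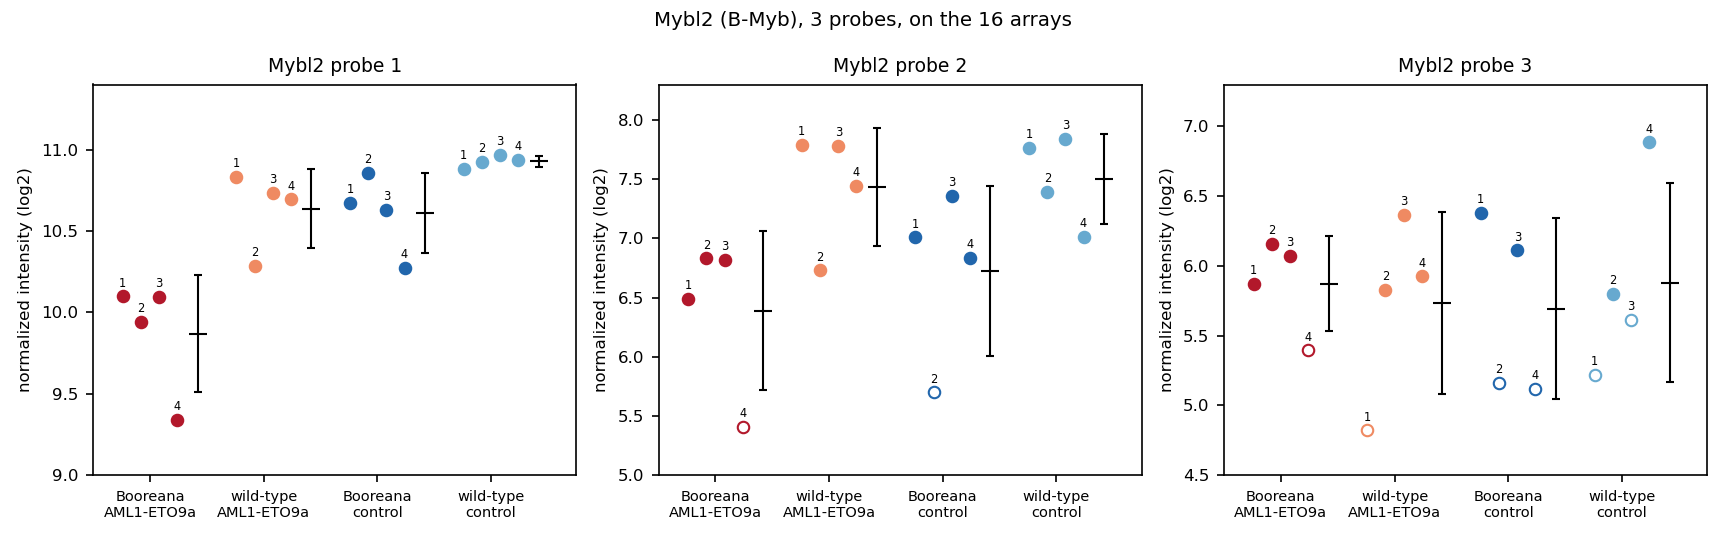
Normalized log2 intensity of the 3 Mybl2 probes on each array, by group, with replicate numbers, open points where the detection p was 0.05 or more, and bars for the mean ± SD. On probe 1 the Booreana AML1-ETO9a arrays, at most 10.10, lay below all other arrays, while probe 3 was dim and the groups overlapped.

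Mybl2, the gene of B-Myb, had 3 probes. On probe 1 (ILMN_2826881), detected on all 16 arrays, the Booreana AML1-ETO9a arrays had 10.10, 9.94, 10.09 and 9.34 and the wild-type AML1-ETO9a arrays had 10.83, 10.28, 10.73 and 10.69. The Booreana control arrays had 10.67, 10.86, 10.63 and 10.27, and the wild-type control arrays had 10.88, 10.93, 10.97 and 10.94. All 4 pairwise comparisons were free of overlap on this probe: the Booreana AML1-ETO9a arrays were lowest and the wild-type control arrays highest. Members without overlap numbered 3 of 8 in the Booreana response (6.58% of all probes), 1 of 8 in the wild-type response (11.3%), 3 of 8 between genotypes with AML1-ETO9a (9.26%) and 2 of 8 with the control vector (11.1%).

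Averaged over the 2 vectors, Mybl2 probe 1 fell in Booreana against wild-type cells, at -0.54 ± 0.14 (adjusted p = 0.019), and probe 2 fell at -0.91 ± 0.27 (adjusted p = 0.0459). These were 2 of 8 member probes called, against 9% of all probes. Probe 3 was at -0.02 ± 0.28 (adjusted p = 0.985). With the replicate block within genotype, probe 1 had adjusted p = 0.0522 and probe 2 had 0.153, so neither was called. The probe 2 call also ended without normalization between arrays, without the filter on dim probes and with array weights. Its size shrank to as little as -0.24 among the other settings. Probe 1 kept its call without any single array (adjusted p up to 0.0415), whereas probe 2 lost it (up to 0.0983) without any array but Booreana AML1-ETO9a replicates 2 and 3, wild-type AML1-ETO9a replicate 2, Booreana control replicate 3 and wild-type control replicate 4.

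With AML1-ETO9a alone, Booreana minus wild-type was -0.77 ± 0.20 on Mybl2 probe 1 (adjusted p = 0.0395). It ended (adjusted p up to 0.125) when any of 12 arrays was left out singly, all but Booreana AML1-ETO9a replicate 3, wild-type AML1-ETO9a replicate 2 and Booreana control replicates 2 and 4. With the control vector it was -0.32 ± 0.20 (adjusted p = 0.462). Averaged over genotypes, probe 1 fell with AML1-ETO9a, at -0.52 ± 0.14 (adjusted p = 0.0341), the only one of 8 member probes called, against 6.69% of all probes. That call ended (up to 0.0745) without any of 11 arrays, all but Booreana AML1-ETO9a replicates 1 and 3, wild-type AML1-ETO9a replicate 1 and Booreana control replicates 2 and 4. The response was -0.74 ± 0.20 in Booreana cells (adjusted p = 0.0794, and 0.0112 with the replicate block within genotype, 0.0333 with it as a fixed term) and -0.29 ± 0.20 in wild-type cells (adjusted p = 0.664). All 4 Booreana pairs were lower with AML1-ETO9a, at -0.57, -0.92, -0.54 and -0.93, and all 4 wild-type pairs were too, at -0.05, -0.64, -0.23 and -0.24. As the vectors did not overlap in either genotype, any pairing would give these directions. The difference between the responses, -0.45 ± 0.28, was not called (adjusted p = 0.814). Without normalization between arrays, none of the 3 Mybl2 probe 1 calls held (adjusted p up to 0.514), while each kept its direction.

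Mybl2 probe 2 (ILMN_1249829) was detected on 14 of 16 arrays. It averaged 6.39 ± 0.67 in Booreana AML1-ETO9a, 7.44 ± 0.50 in wild-type AML1-ETO9a, 6.73 ± 0.72 in Booreana vector control and 7.50 ± 0.38 in wild-type control cells. Its lowest values, 5.41 on Booreana AML1-ETO9a replicate 4 and 5.70 on Booreana control replicate 2, were the 2 arrays that did not detect it. Probe 3 (ILMN_2637886), detected on 10 arrays, averaged 5.87 ± 0.34 in Booreana AML1-ETO9a, 5.73 ± 0.65 in wild-type AML1-ETO9a, 5.69 ± 0.65 in Booreana vector control and 5.88 ± 0.71 in wild-type control cells. Its groups overlapped throughout. Its 95% interval for Booreana minus wild-type averaged over vectors was -0.62 to 0.57. That held the probe 1 value of -0.54 and overlapped the probe 2 interval of -1.49 to -0.34. Whether this dim probe follows the others cannot be told. The probe sequences were not used here.

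The Mybl2 promoter is shown because Mybl2 is an E2F target by background knowledge and was the Myb gene with a called change. It lies at chr2:163054385-163054634 on the plus strand of GRCm38.p6 (RefSeq), with E2F and c-Myb cores in capitals.
Mybl2: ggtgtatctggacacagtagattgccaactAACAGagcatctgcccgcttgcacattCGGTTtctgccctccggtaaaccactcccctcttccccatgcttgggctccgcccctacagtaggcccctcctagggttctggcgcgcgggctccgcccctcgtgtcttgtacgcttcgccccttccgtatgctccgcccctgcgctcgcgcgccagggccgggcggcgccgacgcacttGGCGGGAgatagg
GGCGGGA occurs 7 bases before the start, and AACNG occurs at 216 bases (plus strand) and 189 bases (minus strand), with no overlap between them. TGTGGT and ACGTG had 0 matches. RefSeq promoters were found for 5 of the 6 genes, all but Mybl1. Those of Myb and Ep300 are not shown, and held 1 and 0 matches to GGCGGGA and 0 to the other motifs.

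**Figure D3:**
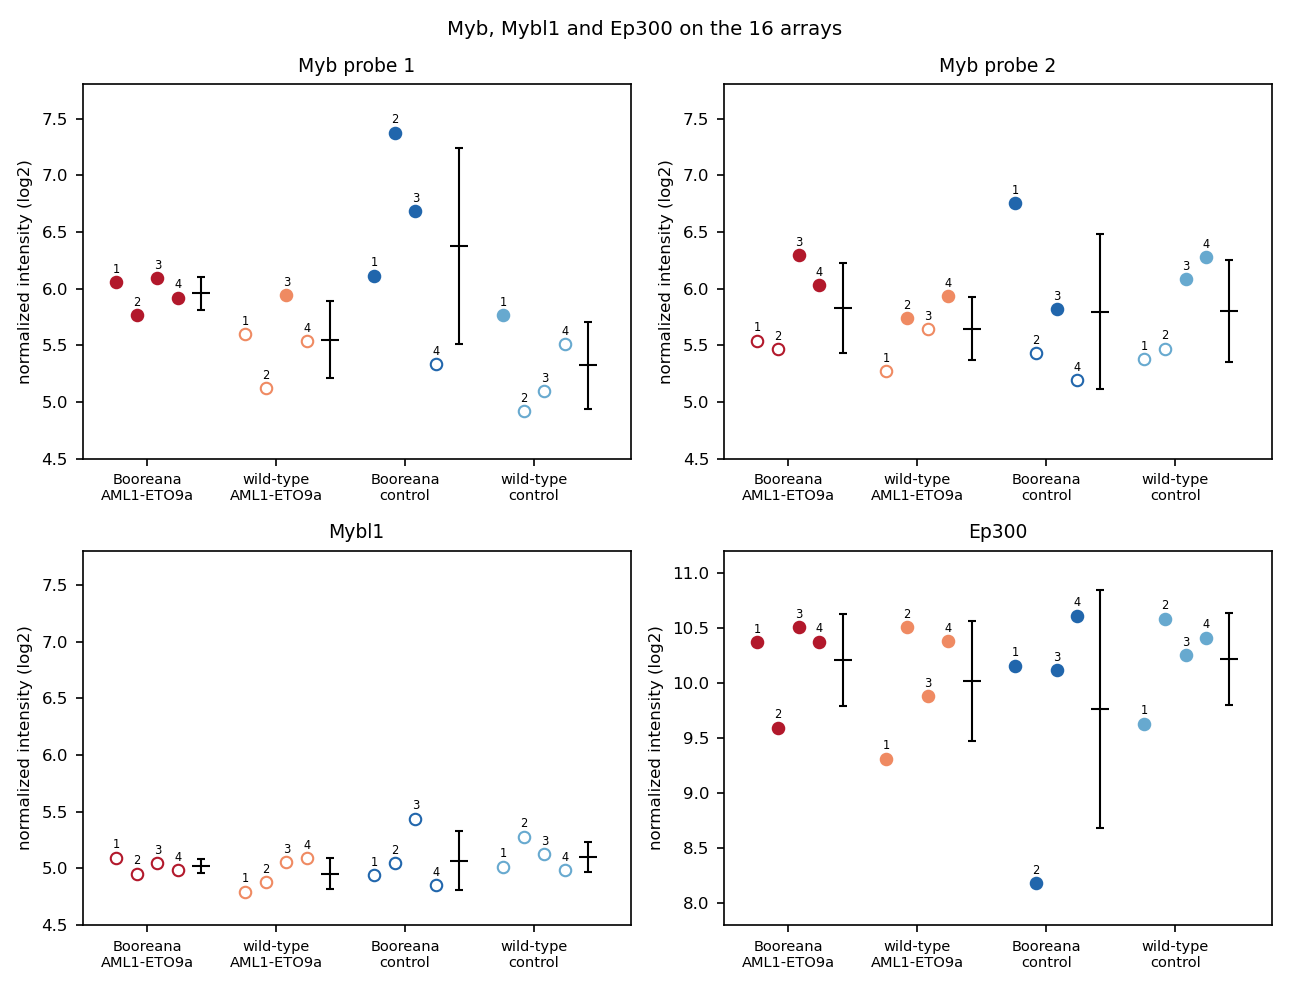
Normalized log2 intensity of both Myb probes, Mybl1 and Ep300 on each array, by group, with replicate numbers, open points where the detection p was 0.05 or more, and bars for the mean ± SD. Mybl1 was not detected on any array, and Ep300 fell to 8.18 on Booreana control replicate 2.

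Myb had 2 dim probes, and neither was called in any of the 7 comparisons. Probe 1 (ILMN_2752817) was detected on 4 of 4 Booreana AML1-ETO9a, 1 of 4 wild-type AML1-ETO9a, 3 of 4 Booreana control and 1 of 4 wild-type control arrays. It had 6.05, 5.76, 6.09 and 5.92 in Booreana AML1-ETO9a cells and 5.60, 5.12, 5.94 and 5.53 in wild-type AML1-ETO9a cells. With the control vector it had 6.11, 7.38, 6.68 and 5.33 in Booreana cells and 5.76, 4.92, 5.10 and 5.51 in wild-type cells. The genotypes overlapped with both vectors. The highest value, 7.38, lay on Booreana control replicate 2, the array that stood apart. Differences of this probe without that array are not given here. With AML1-ETO9a, Booreana minus wild-type was 0.41 ± 0.34 on probe 1 (adjusted p = 0.816). With the control vector it was 1.05 ± 0.34 (adjusted p = 0.0855), a call gained without Booreana control replicate 4 (1.40, adjusted p = 0.00894) and with array weights (1.08, adjusted p = 0.00782). Averaged over vectors it was 0.73 ± 0.24 (adjusted p = 0.076), a call gained under the same changes (0.91, adjusted p = 0.00802, and 0.79, adjusted p = 0.00516). With the replicate block within genotype the averaged value had adjusted p = 0.224.

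Myb probe 2 (ILMN_2683910) was detected on 2 of 4 arrays in each group, and its 7 differences lay between -0.16 and 0.19. Its 95% interval for Booreana minus wild-type averaged over vectors was -0.39 to 0.57, against 0.22 to 1.24 for probe 1. These intervals overlap, so whether the 2 probes differ cannot be told. In pairs, AML1-ETO9a minus control on probe 1 was higher in 1 of 4 Booreana pairs and 3 of 4 wild-type pairs, and on probe 2 the tally was the opposite, 3 of 4 Booreana pairs and 1 of 4 wild-type pairs.

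Mybl1 (probe ILMN_2627105), the gene of A-Myb, was detected on 0 of 16 arrays. Its lowest detection p was 0.0977, and its normalized value lay between 4.80 and 5.44, with deposited intensities from 168 to 232. It was not above background in any group, so no difference is given.

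Ep300 (probe ILMN_2800358), the gene of the p300 acetyltransferase, was detected on all 16 arrays. It had 10.37, 9.59, 10.51 and 10.38 on the Booreana AML1-ETO9a arrays and 9.31, 10.51, 9.88 and 10.38 on the wild-type AML1-ETO9a arrays. The Booreana control arrays had 10.16, 8.18, 10.12 and 10.61, and the wild-type control arrays had 9.63, 10.58, 10.25 and 10.41. All groups overlapped, and the low value again lay on the Booreana control array that stood apart. The difference of the responses was 0.65 ± 0.62 with that array (adjusted p = 0.824) and 0.12 without it. The 95% interval of the response was -0.48 to 1.38 in Booreana cells and -1.13 to 0.73 in wild-type cells.

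**Figure D4:**
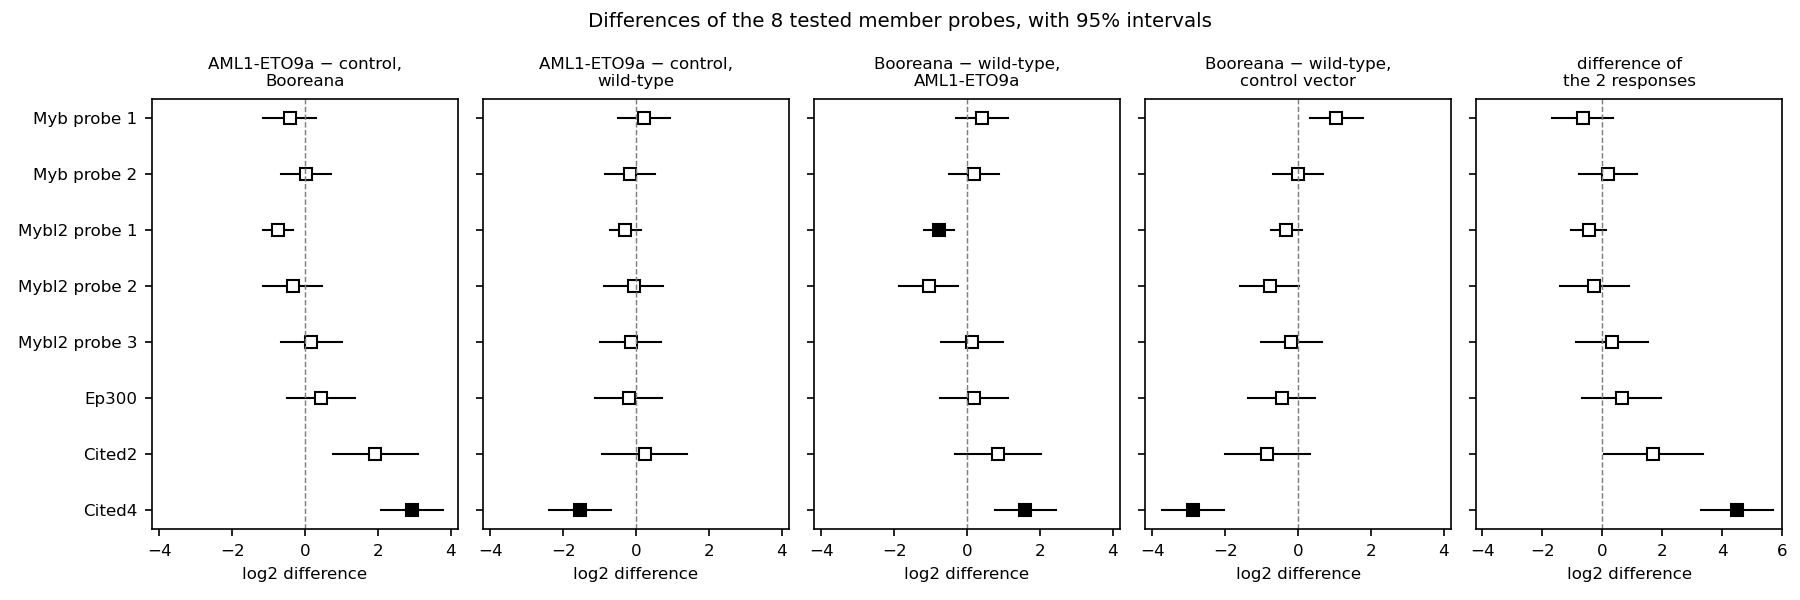
Log2 differences of the 8 tested member probes in 5 comparisons, with 95% intervals, filled where the adjusted p was under 0.05. Cited4 is the filled square in every panel, from -2.88 to 4.49, and Mybl2 probe 1 is the other, at -0.77 for Booreana minus wild-type with AML1-ETO9a.

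Genes around the members were then read in lists, chosen with earlier results of these data known. Of 19 c-Myb activated genes listed, 16 had a probe and 13 were tested. Booreana against wild-type with the control vector, 2 rose and 5 fell, where 6.35% of all probes were called, with a median of -0.93 where the median over all probes was 0.01. Elane, neutrophil elastase, was at -6.27 ± 0.25, Gfi1 at -3.94 ± 0.23 and the granule proteases Prtn3 and Ctsg at -3.66 ± 0.23 and -3.36 ± 0.24, while Gata2, a transcription factor of stem and progenitor cells, rose by 2.36 ± 0.34 and Cd34, a progenitor surface protein, by 1.91 ± 0.29. With AML1-ETO9a, 1 rose and 5 fell in the same contrast (3.74% of all probes called), with Gata2 up by 1.49 ± 0.34 (adjusted p = 0.0217, and up to 0.0835 without Booreana AML1-ETO9a replicate 1, 2 or 4 or wild-type AML1-ETO9a replicate 2, 3 or 4), Elane at -6.02 ± 0.25 and Mpo, myeloperoxidase, at -6.66 ± 0.55, and the median was 0.13.

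The response of the c-Myb list to AML1-ETO9a was 2 rises and 2 falls in Booreana cells (median -0.44, all probes -0.03, 1.65% of them called) and 1 rise and 4 falls in wild-type cells (median -0.69, all probes 0.00, 4.32% of them called). Gfi1 rose in Booreana cells (1.39 ± 0.23, adjusted p = 0.00406) and fell in wild-type cells (-1.07 ± 0.23, adjusted p = 0.0126), the same directions as Cited4. Leaving out replicate 3 of wild-type AML1-ETO9a put the fall at 0.0508. Between genotypes with AML1-ETO9a, Gfi1 was lower in Booreana cells (-1.47 ± 0.23, adjusted p = 0.00131), whereas Cited4 was higher there. Cd34 rose in both, by 1.27 ± 0.29 in Booreana and 2.60 ± 0.29 in wild-type cells. In Booreana cells the rise had adjusted p = 0.0349 for Cd34, and up to 0.113 when one of these 8 arrays was left out: Booreana AML1-ETO9a replicates 1, 3 and 4, wild-type AML1-ETO9a replicate 3, Booreana control replicates 2 and 4 and wild-type control replicates 2 and 3. Elane fell in both, at -2.02 ± 0.25 and -2.27 ± 0.25. Cebpa, a granulocyte regulator, fell in wild-type cells at -2.53 ± 0.46, and was not called in Booreana cells, where it was at -1.10. Elane, Mpo, Prtn3 and Ctsg are also among the primary granule markers whose sums are given above.

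**Figure D5:**
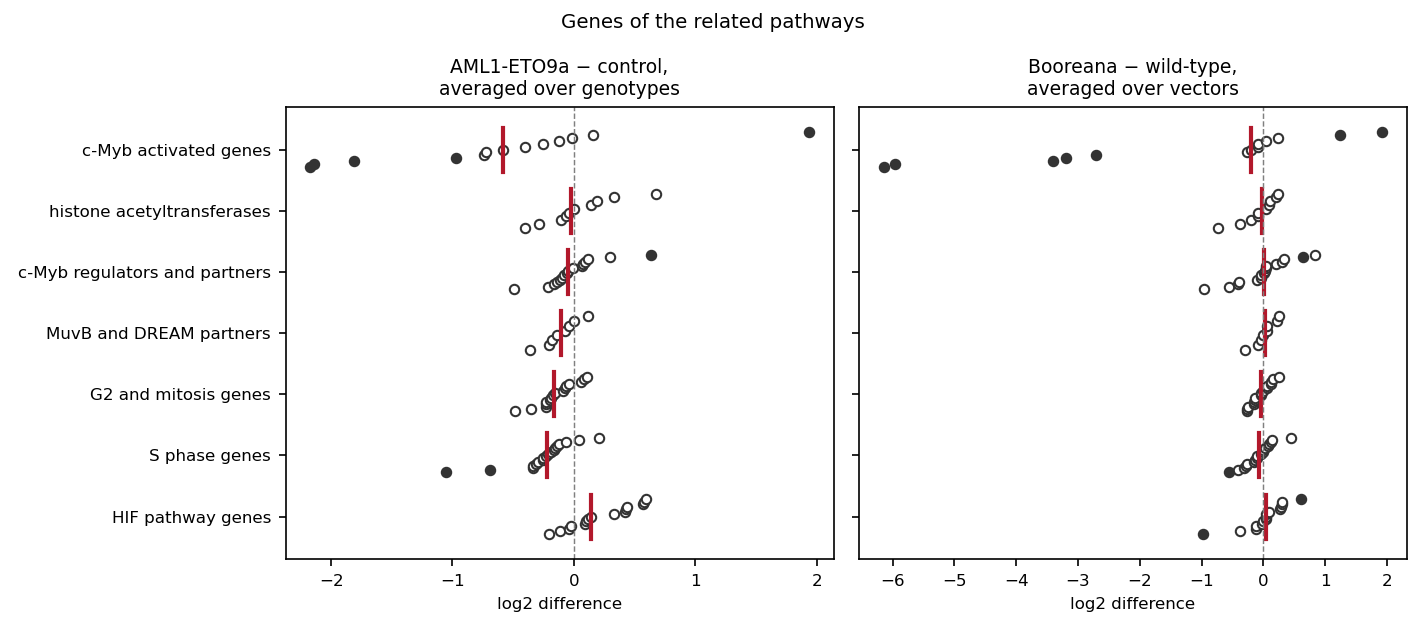
Log2 differences of the tested genes in 7 related lists, averaged over genotypes (AML1-ETO9a minus control) and over vectors (Booreana minus wild-type), filled where the adjusted p was under 0.05, with the list's median as a red bar. The c-Myb activated genes reach -6.14, while the histone acetyltransferases, the MuvB and DREAM genes and the mitotic genes hold no filled point.

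The lists of p300 relatives, of MuvB and DREAM genes and of mitotic genes held no calls. Of all probes 0.0862% to 9% were called per comparison, so counts of 0 in lists of this size lie near the background. Of 10 histone acetyltransferase genes tested (12 listed), 0 were called in any of the 7 comparisons, with medians between -0.18 and 0.16. Of 8 genes of the MuvB and DREAM complexes (12 listed), 0 were called. Of 16 G2 and mitosis genes that B-Myb activates (25 listed), 0 were called, with medians between -0.22 and 0.12. Mybl2 itself had been called lower in Booreana cells on probe 1. S phase genes that E2F activates, 18 tested of 20 listed, had 2 falls with AML1-ETO9a in wild-type cells, Rrm2, a ribonucleotide reductase subunit, at -0.85 ± 0.20 and E2f2, an E2F factor, at -1.34 ± 0.32. Both calls ended without any of 5 wild-type arrays (up to 0.0907 and 0.085), AML1-ETO9a replicates 1 and 3 and control replicates 3 and 4 for both, control replicate 1 for Rrm2 and control replicate 2 for E2f2. Averaged over genotypes both were called and kept the call without any single array, Rrm2 at -0.69 ± 0.14 (adjusted p = 0.0063, but 0.109 without normalization between arrays) and E2f2 at -1.06 ± 0.23 (adjusted p = 0.00818). Booreana against wild-type averaged over vectors, Prim1, a primase subunit, fell at -0.56 ± 0.17 (adjusted p = 0.0437), a call that ended (up to 0.101) without any array but Booreana AML1-ETO9a replicate 3, wild-type AML1-ETO9a replicates 1 and 2, Booreana control replicate 2 and wild-type control replicate 4. Of 16 c-Myb regulators and partners (20 listed), only Cdkn1a, a cell cycle inhibitor, was called, at 0.85 ± 0.19 for AML1-ETO9a in wild-type cells and 0.85 ± 0.19 for Booreana minus wild-type with the control vector. Without wild-type control replicate 3 these had adjusted p = 0.0718 and 0.0506, and the first also ended without wild-type AML1-ETO9a replicate 4. Cdkn1a was also called averaged over genotypes (0.63 ± 0.13, adjusted p = 0.00785, but 0.0623 without normalization between arrays) and over vectors (0.64 ± 0.13, adjusted p = 0.00525), and leaving out single arrays ended neither.

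In the HIF pathway, where CITED2 competes for p300, 15 of 22 genes were tested. Averaged over vectors, Vegfa, the vascular growth factor, fell in Booreana against wild-type cells (-0.98 ± 0.17, adjusted p = 0.00101), and Ddit4, a stress-induced inhibitor of growth signalling, rose by 0.61 ± 0.18 (adjusted p = 0.0479). The Ddit4 call ended (up to 0.105) without any array but Booreana AML1-ETO9a replicate 3, wild-type AML1-ETO9a replicate 4 and Booreana control replicates 2 and 3. In wild-type cells AML1-ETO9a raised Slc2a1, a glucose transporter (0.72 ± 0.19, adjusted p = 0.0452), a call that ended (up to 0.136) without any array but wild-type AML1-ETO9a replicate 1, Booreana control replicate 2 and wild-type control replicate 4. Of 8 genes listed as other CITED proteins and their partners, 2 were tested, Smad2 and Smad3, and 0 were called. Cited1 and the TFAP2 genes of that list were not tested, so the TFAP2 partners of CITED4 were not read here.

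The genes most like each member were ranked by Pearson correlation over the 16 arrays among 8671 genes, as a description without a test. Cited4 was matched best by Arhgap23 (0.79), Depdc1b (0.73) and Plekhf2 (0.73), lower than for any other member. Mybl2 probe 1 was matched by Srf (0.91), Parl and Dus1l (0.90 each), and Myb probe 1 by Bbs12 (0.90), Calhm6 and Dapp1 (0.89 each). Ep300 was matched by Ttc5 (0.96), Hdac1 (0.96) and Smchd1 (0.95), and Cited2 by Fermt3 (0.95), Hk1 and Pias4 (0.93 each). The array that stood apart takes part in all of these values. Ep300 and Cited2 were both lowest there and Myb probe 1 was highest. Fermt3, Hk1 and Pias4 had SDs of 1.94, 2.10 and 2.28 in Booreana control cells, and at most 0.42 in any other group. Correlations without that array are not given, so these matches may rest on it.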

How the data were processed

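Intensities and detection p-values for each probe on 16 arrays were deposited by the authors without normalization, per the file headers, and their software is not given in the sources used. The lowest intensity was 112, so background had not been subtracted. A second deposited table holds the authors' processed log2 values, from 7.99 to 16.1 with a median of 8.34 on every array; its exact transformation is unknown. The submitters' processing notes name lumi. This table was used only as an alternative.

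Intensities were corrected with limma's normexp method (offset 16), put on the log2 scale and quantile normalized (limma 3.58.1, statmod 1.5.0, R 4.3.3). All arrays entered 1 model of 4 group means, with 7 comparisons: AML1-ETO9a minus control and Booreana minus wild-type in each setting and averaged, and the difference of the responses. Adjusted p-values are Benjamini-Hochberg over all 12760 tested probes. The filter, background correction, normalization, array weights, block and left-out arrays were varied. The number of arrays limits the precision. The fitting was tested on simulated data.

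Probes were named from the platform's annotation table, with 1 symbol for 23978 probes. Named were all member probes, the called genes of each list (at most 4 per comparison and direction, by adjusted p) and the 3 genes most correlated with each member. List genes outside that rule are Cebpa in Booreana cells, given beside its wild-type value, and Gfi1 between genotypes with AML1-ETO9a, given beside Cited4. Members and lists were chosen with earlier results of these data known.

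Same-numbered arrays deviated together within a genotype (correlations 0.36 to 0.42 in Booreana and 0.17 to 0.71 in wild-type cells) but not consistently across genotypes, where they lay between -0.61 and 0.33, below 0 for numbers 1 and 2 and above 0 for 3 and 4. The labels do not state what a number shares, so the block within genotype was added after seeing the data.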

Additional observations from a re-analysis of the deposited data

Results flagged for a closer look

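Cited4 was set apart because its response to AML1-ETO9a differed between the genotypes, by 4.49 on the log2 scale in the test of the difference itself. It was higher with AML1-ETO9a in 4 of 4 Booreana pairs and lower in 4 of 4 wild-type pairs. The Booreana tally follows from the groups not overlapping, so it is not separate evidence.

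Of 36 groups of 4 arrays examined over the 9 member probes, 2 held an array far from the others, and chance flags about 1 in 20. Cited2 on Booreana control replicate 2 was at 6.30, where the nearest array of that group was at 9.45, a gap of 0.921 of the group's range. Ep300 on Booreana AML1-ETO9a replicate 2 was at 9.59, where the nearest was at 10.37, a gap of 0.848 of the range. The Booreana control array also stood apart over all probes, with a mean correlation of 0.845.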

How the results depend on the processing

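The 56 member results were recomputed under 12 other settings, giving 624 values of which 18 lost a call, 15 gained one and 0 called values changed sign, and without each of 16 arrays, giving 896 values of which 46 lost a call, 6 gained one and 0 called values changed sign. The causes were not tested. The count of called members for the difference of the responses was 1 in every setting. For AML1-ETO9a in Booreana cells the count (1) became 3 without background correction, in the authors' values, with array weights and with the replicate block within genotype, and 2 with that block as a fixed term. In wild-type cells (1) it became 0 without normalization, in the authors' values, without the filter, with the replicate block and with only the groups compared. Booreana minus wild-type with AML1-ETO9a (2) had 1 without normalization, without the filter, with the replicate block and with array weights, and 0 with only the groups compared. With the control vector (1) it had 2 with array weights. Averaged over genotypes (1), AML1-ETO9a had 0 without normalization, 2 in the authors' values and 3 with array weights. Averaged over vectors (2), Booreana minus wild-type had 0 without normalization, 1 without the filter, 0 with the replicate block within genotype and 3 with array weights. Leaving out single arrays gave 1 to 2 members for the Booreana response, 0 to 1 for the wild-type response, 0 to 3 and 1 to 2 between genotypes with AML1-ETO9a and with the control vector, 0 to 2 averaged over genotypes and 1 to 2 averaged over vectors.

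Over all probes, the difference of the responses had 11 calls, against 21 without background correction, 19 with an offset of 50, 6 without normalization, 28 in the authors' values, 59 with array weights, 17 with the replicate block, 86 and 37 with the block within genotype as a random and a fixed term, and 6 to 14 without single arrays. The Booreana response had 210, against 532 with array weights, 661 and 453 with those blocks, 63 with only the groups compared and as few as 139 without 1 array. The wild-type response had 551, against 336 without normalization, 1125 with array weights, 1062 and 959 with those blocks and as few as 355 without 1 array. Averaged over genotypes there were 854, against 1511 with array weights and 1522 and 1343 with those blocks. Booreana minus wild-type had 477 with AML1-ETO9a (739 with array weights), 810 with the control vector (1289 with array weights, 516 with only the groups compared) and 1148 averaged over vectors (1784 with array weights). Without normalization the median of all probes for the Booreana response moved to 0.10, against -0.03, and 149 of 173 calls were higher, against 134 of 210; for Booreana minus wild-type with AML1-ETO9a 296 of 383 were higher, against 296 of 477. Likewise 460 of 613, against 482 of 854, were higher averaged over genotypes, 229 of 336, against 315 of 551, in wild-type cells and 634 of 889, against 669 of 1148, averaged over vectors.

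Signal over background limits both Myb probes, Mybl2 probe 3 and Cited4 in Booreana control cells, where a change in level below background cannot be read. It also limits Mybl2 probe 2 on the 2 Booreana arrays that did not detect it. The sizes of the 5 called Cited4 differences fell by over 1.5 times without background correction and in the authors' values. The called Mybl2 probe 2 difference shrank by over 1.5 times in the same settings and with array weights.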

Other observations

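Ep300 varied with the replicate number more than with the virus in wild-type cells. Replicate 1 was lowest in both groups, at 9.31 with AML1-ETO9a and 9.63 with the control vector, and replicate 2 was highest in both, at 10.51 and 10.58. The paired differences, AML1-ETO9a minus control, were -0.20 ± 0.17 (SD, 4 pairs), lower in 4 of 4 pairs. In Booreana cells they were 0.45 ± 0.70, higher in 3 of 4 pairs. These are values only, with no test.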
